A study of Rattus norvegicus with 6 samples.

Results

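The genes described here are 54 genes of mitosis, the spindle and the kinetochore, taken from a list by gene symbol and read from a count table of rat prostate RNA sequencing. Of the 54, 53 had a row in the table of 32883 genes; cyclin B2 (Ccnb2) was not analysed here. The study modelled benign prostatic hyperplasia in the rat. Rats in the hormone group carried 4 pellets under the skin for 4 weeks, each holding 2.5 mg estradiol beside 25 mg testosterone, and control rats had the incision and staples with no pellet. Each group had 3 libraries of prostate tissue, and the condition label reads benign prostatic hyperplasia for the controls too, so groups were taken from the treatment. The labels used here give no strain, age or prostate lobe, and do not say that each tissue came from its own animal, so a p-value here reflects how far these tissues vary, which may be technical.

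Mitosis separates the copied chromosomes. Cyclin-dependent kinase 1 with cyclins A and B drives entry, Aurora and Polo-like kinases build the spindle, and condensin compacts the chromosomes. Kinetochores join each centromere to spindle microtubules, and the spindle checkpoint holds back the anaphase-promoting complex until the joining is done. Most of these genes are transcribed late in the cell cycle, and the adult prostate, where few cells divide, is known to keep them low. In whole tissue, more dividing cells and more RNA per cell cannot be told apart.

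Library totals ran from 12931982 to 15949500 counts, with 17165 to 17741 genes detected per library. Levels are given as CPM, read counts scaled to the library size, after trimmed-mean (TMM) scaling, a correction for library composition. They compare a gene between libraries, not one gene with another. Of 11 luminal epithelial markers tested, 2 rose, Sbp and Krt8, beside 2.39% of all genes tested. At an unadjusted p under 0.05, 6 were higher and 2 lower, beside 12.1% and 10.6% of all genes. Pbsn, a secretory gene of the rat prostate, was at 0 in every library. The summed level of the luminal markers was 71042 to 125819 CPM in the controls and 84404 to 113184 CPM in the hormone libraries. Log2 fold changes of the 11 tested ran from -1.61 to 4.72, so the sum does not stand for each marker. All 8 smooth muscle markers had negative fold changes, where 49.9% of all genes had a positive one. Of these 8, 1 was lower at an unadjusted p under 0.05 and none was called (0 by DESeq2), counts near the background shares. They summed to 4360 to 9071 CPM in the controls and 4099 to 6042 CPM in the hormone libraries, and their part in the results was not tested. Summed macrophage markers (15 genes) were at 510 to 1006 CPM in the controls and 1083 to 1871 CPM in the hormone libraries. Semg1, a seminal vesicle gene, ran from 1074 to 23733 CPM in the controls, and Svs4, Svs5 and Svs6 were at 0.

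Members rose in each of the 9 roles they were grouped by. Of the 51 members with enough counts to test, 33 rose, none fell and 18 did not pass (edgeR quasi-likelihood test, adjusted p under 0.05). Across all 14003 genes tested, 2.39% rose and 0.886% fell. The members' median log2 fold change was 2.03, beside 0.00 over all genes tested, and at an unadjusted p under 0.05, 46 members were higher and 0 lower, beside 12.1% and 10.6% of all genes. A log2 fold change above 1 was found for 40 members and above 2 for 26, beside 5.47% and 1.37% of all genes. Every hormone library lay above every control library for 46 of the 51, beside 16.1% of all genes, and no member had all its controls on top, beside 15.3%. Positive fold changes were found for 49 of 51 members, beside 49.9% of all genes; Kif11 and Kifc1 had a negative one. DESeq2 called 40 members higher, including all 33, beside 6.47% of all genes. The others it called were Aurka, Cdca8, Hmmr, Kif20b, Plk1, Prc1 and Smc2.

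These counts depend on single libraries. Without control 2, edgeR called 0 members, the smallest adjusted p being 0.0533, where 0.361% of all genes rose; 42 of 53 members were then higher at an unadjusted p under 0.05 (10.1% of all genes), and DESeq2 called 35 (4.93% of all genes). Without control 1 and control 3, edgeR called 30 members (2.2% of all genes) and 25 (2.08%). Without hormone 1, 2 and 3, it called 9 (0.691% of all genes), 13 (0.712%) and 6 (0.683%). Bub1b, Kif4a, Mki67, Ncaph, Nusap1 and Top2a passed in 5 of these 6 fits, and Cdc20, Pttg1, Ndc80 and Birc5 in none. The filter on low counts bears on the count as well: 29 of the 51 reached its level in all 6 libraries, of which 14 rose, beside 2.04% of all genes that did so. Bub1b, Pttg1, Spc25, Kif4a and Ncapg reached it in hormone libraries alone, so a difference was needed for them to be tested, and all 5 rose. Another 17 reached it in some controls but not in all, so they too needed hormone libraries to be tested, and 14 of them rose. With no filter, 32 of 53 members rose (1.54% of all genes).

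**Figure D1:**
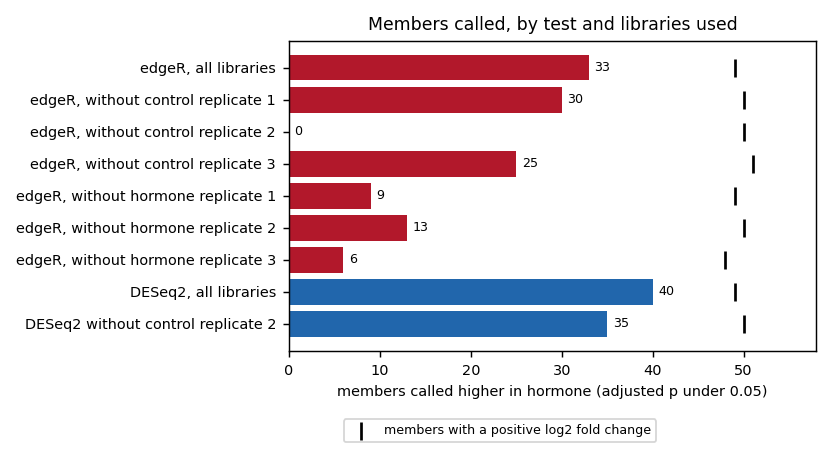
Number of members called higher (bars, adjusted p under 0.05) with each library left out, by edgeR (red) and DESeq2 (blue); black ticks mark members with a positive log2 fold change. edgeR without control 2 calls 0, and DESeq2 without it calls 35.

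**Figure D2:**
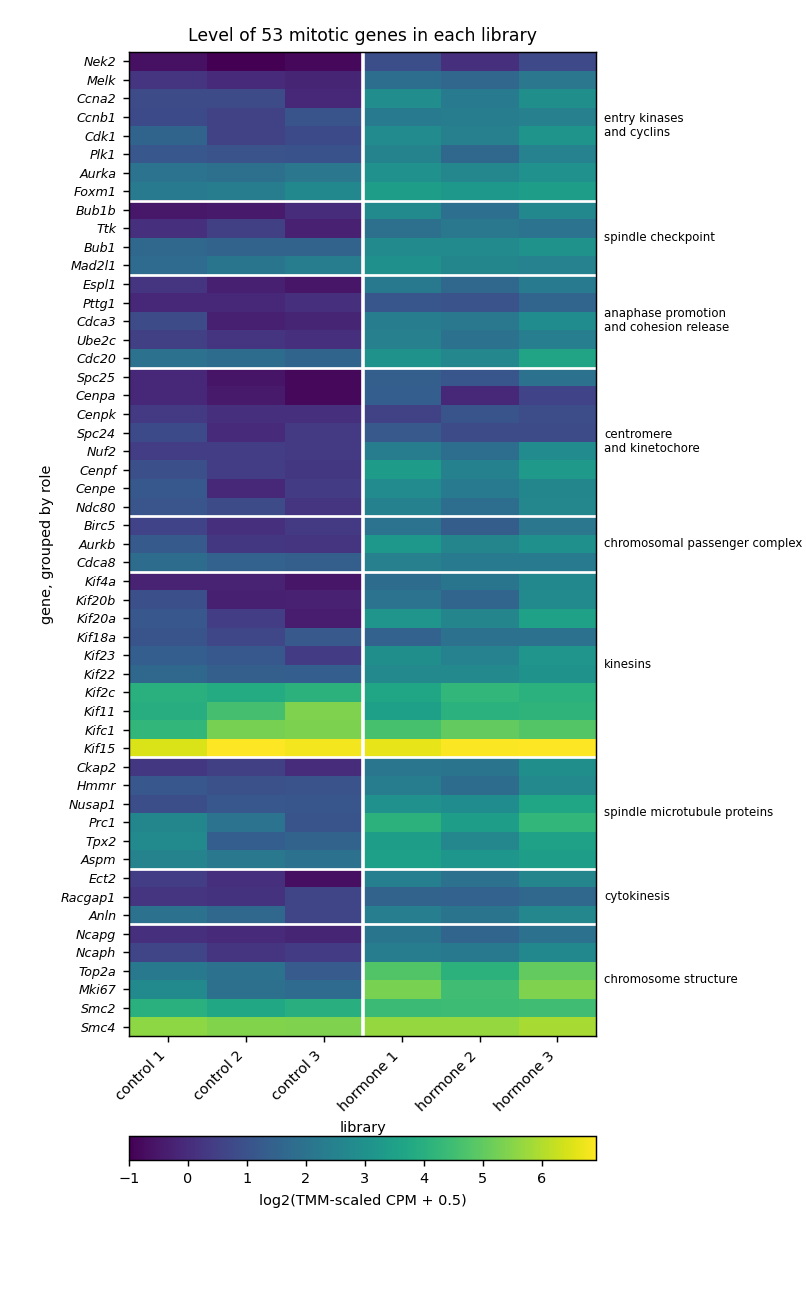
Heat map of the level of the 53 members, as log2(TMM-scaled CPM + 0.5), with the 6 libraries as columns and genes grouped by role; white lines separate groups and roles. The 3 hormone columns are brighter for most rows, while Kif15, Smc4, Kifc1, Kif11, Kif2c and Smc2 are bright in every library.

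Regulators of mitotic entry: of 7 tested, 5 rose and 2 did not pass, with a median log2 fold change of 1.87. Melk, a serine/threonine kinase induced in dividing cells, was at 0.642, 0.486 and 0.385 CPM in the controls and 3.15, 2.54 and 3.91 CPM in the hormone libraries. All hormone libraries stood above all controls, and the log2 fold change was 2.65 ± 0.35 (SE, n = 3 per group; edgeR adjusted p = 0.0129). Ccna2, the cyclin of S phase and early mitosis, rose by 2.62 ± 0.42 on the log2 scale, as all changes below, and Ccnb1, the cyclin of the mitotic kinase, rose by 1.87 ± 0.28. Ccna2 lies wholly inside the span of Exosc9 in the table's coordinates, and no source used here states the counting strand, so reads shared between them are uncertain. Cdk1, the kinase itself, was at 2.43, 0.972 and 1.22 CPM in the controls and 6.5, 5.01 and 8.05 CPM in the hormone libraries (2.09 ± 0.39, edgeR adjusted p = 0.0342). Foxm1, a transcription factor for late cell cycle genes, rose less, by 0.96 ± 0.20 (edgeR adjusted p = 0.0497). Aurka, the Aurora kinase of the spindle poles, was at 3.57, 3.28 and 3.91 CPM in the controls and 7.53, 5.89 and 7.58 CPM in the hormone libraries; the groups did not overlap, but its adjusted p was 0.057. Plk1, the Polo-like kinase, had 1.48 ± 0.34 and an adjusted p of 0.0622. Nek2, a centrosome kinase, fell below the filter with 3 counts in all controls together and 44 in all hormone libraries, a ratio of 16.0 with an exact 95% interval of 5.14 to 80.8 that covers counting error only.

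The spindle checkpoint held the largest fold change of the members tested, that of Bub1b. This gene had 3, 4 and 8 counts in the controls and passed the count filter in hormone libraries alone. Bub1b encodes BubR1, which inhibits the anaphase-promoting complex. It was at 0.214, 0.243 and 0.513 CPM in the controls and 6.37, 3.20 and 6.02 CPM in the hormone libraries. The lowest hormone library was above the highest control (log2 fold change 3.96 ± 0.46, edgeR adjusted p = 0.00966). Ttk, the checkpoint kinase Mps1, rose by 2.56 ± 0.39 and Bub1, a kinetochore kinase, by 1.47 ± 0.22. Mad2l1, the checkpoint protein Mad2, was at 2.93, 3.77 and 4.62 CPM in the controls and 7.40, 5.74 and 5.16 CPM in the hormone libraries, with a fold change of 0.69 ± 0.26 that did not pass (adjusted p = 0.175). Of 29 other kinetochore and centromere genes tested, 15 were higher and 0 lower at an unadjusted p under 0.05 and DESeq2 called 12 higher; by edgeR's adjusted p, 3 rose and none fell: Kntc1, part of the complex that brings dynein to kinetochores (2.52 ± 0.27, edgeR adjusted p = 0.00865), Hjurp, the chaperone of the centromeric histone (2.09 ± 0.30), and Sgo2, a protector of cohesion (2.20 ± 0.37). The checkpoint partner Bub3 was at a log2 fold change of -0.01 ± 0.12.

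All 5 genes of anaphase promotion and cohesion release rose, with a median log2 fold change of 2.58. Espl1 encodes separase, the protease that cuts cohesin, and was at 0.642, 0.304 and 0.193 CPM in the controls and 4.06, 2.62 and 4.45 CPM in the hormone libraries (3.28 ± 0.47, edgeR adjusted p = 0.0157). Ube2c, a ubiquitin-conjugating enzyme of the anaphase-promoting complex, was at 0.928, 0.668 and 0.578 CPM against 4.96, 3.34 and 4.77 CPM (2.58 ± 0.33, adjusted p = 0.0119). Both genes had no overlap between groups. Cdc20, the complex's activator in mitosis, was at 3.35, 2.98 and 2.44 CPM against 7.92, 5.81 and 12.0 CPM, the smallest change of the 5 (1.55 ± 0.31, adjusted p = 0.0458), and it was lost with any library left out. Cdca3, a trigger of mitotic entry, rose by 2.97 ± 0.54, and Pttg1, securin, by 1.97 ± 0.37. Pttg1 passed the count filter in hormone libraries alone. A related list of 16 genes held subunits of the complex itself, with Fzr1, another activator, and Ube2s, another ubiquitin-conjugating enzyme. None of the 16 was called in either direction, a count near the background share, and their median was -0.02. At an unadjusted p under 0.05, 0 were higher and 1 lower (DESeq2 called 0).

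Among kinetochore and centromere members, 5 of 7 tested rose and none fell, and Spc24 and Cenpk did not pass. The Ndc80 complex, which binds microtubule ends, is a set of 4 members, measured here per length as well, in FPKM, a length-corrected unit deposited by the authors. Nuf2 was at 0.491, 0.469 and 0.410 FPKM in the controls and 2.39, 1.6 and 3.27 FPKM in the hormone libraries, a level comparable across genes; its CPM ran 0.856, 0.850 and 0.770 against 4.63, 3.12 and 6.64 (2.53 ± 0.36, edgeR adjusted p = 0.0157). Spc25 went from 0.428, 0.182 and 0.0642 CPM to 2.12, 1.67 and 3.44 CPM (3.40 ± 0.59, adjusted p = 0.0293). With 6, 3 and 1 counts in the controls, Spc25 passed the count filter in hormone libraries alone. Ndc80 rose by 1.98 ± 0.41. Spc24, the fourth subunit, was at 1.21, 0.486 and 0.770 CPM against 1.80, 1.24 and 1.25 CPM, with little separation and an adjusted p of 0.294 (0.81 ± 0.42); its control FPKM, 1.00 ± 0.476 (SD, n = 3), was above the 0.191 ± 0.163 of Spc25. Cenpf, a large protein of the outer kinetochore, was at 1.43, 0.850 and 0.706 CPM against 9.66, 5.09 and 8.99 CPM (2.99 ± 0.38, adjusted p = 0.0126). Cenpa, the centromeric histone, fell below the filter, with 6, 4 and 1 counts in the controls and 32, 6 and 13 in the hormone libraries.

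In the chromosomal passenger complex, which corrects kinetochore attachments, 2 of 3 rose. Aurkb, its kinase, was at 1.86, 0.729 and 0.642 CPM in the controls and 8.75, 5.52 and 7.42 CPM in the hormone libraries (2.76 ± 0.43, edgeR adjusted p = 0.0200). Control 1 was the highest control for this gene, and no control reached any hormone library. Birc5, survivin, rose by 2.03 ± 0.39. Cdca8, borealin, was at 3.00, 2.31 and 2.12 CPM against 4.96, 4.29 and 4.38 CPM, with no overlap between groups and an adjusted p of 0.0987 (0.88 ± 0.24). Incenp, the scaffold of the complex and outside the 54 genes, was at 0.76 ± 0.23 and did not pass (adjusted p = 0.117).

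Kinesins, the motor proteins that move along microtubules, were the most uneven role. Of 10 tested, 4 rose and 6 did not pass, with log2 fold changes from -0.85 to 3.75. Kif4a, a chromosome-bound motor, was at 0.357, 0.364 and 0.193 CPM in the controls and 2.96, 3.71 and 5.94 CPM in the hormone libraries (3.75 ± 0.44, edgeR adjusted p = 0.00966). With 5, 6 and 3 counts in the controls, Kif4a passed the count filter in hormone libraries alone. Kif20a, a motor of the midzone, rose by 3.15 ± 0.56; its span overlaps Cdc23 by 1910 bases in the table's coordinates. Kif23, a cytokinesis motor, rose by 2.15 ± 0.37, and Kif22, which pushes chromosome arms, by 1.56 ± 0.24. Kif11, the motor that separates the spindle poles, was at 14.9, 23.5 and 41.6 CPM in the controls and 10.7, 16.3 and 17.4 CPM in the hormone libraries. Its groups overlapped, and its means, 26.7 ± 13.6 CPM in the controls and 14.8 ± 3.61 CPM in the hormone libraries (SD, n = 3), differed by less than the SD of the controls (-0.85 ± 0.37, adjusted p = 0.228). Kif15 was at 88.2, 119 and 110 CPM against 99.5, 117 and 121 CPM (0.09 ± 0.14), and Kif2c, which shortens microtubules, at 15.9, 14.1 and 16.6 CPM against 12.4, 18.5 and 16.3 CPM (0.01 ± 0.19). Kif15 overlaps RGD1311745 by 3529 bases, and both Kif15 and Kif2c had negative fold changes when libraries were scaled by their totals alone, as Kif11 and Kifc1 did under every scaling tried. Kif20b had a positive fold change of 2.61 ± 0.65 with an adjusted p of 0.0765, and Kifc1, a minus-end motor, -0.23 ± 0.29.

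Of 6 proteins of spindle microtubules, 3 rose. Nusap1, which bundles microtubules near chromosomes, was at 1.36, 1.70 and 1.67 CPM in the controls and 7.60, 6.69 and 12.3 CPM in the hormone libraries (2.48 ± 0.31, edgeR adjusted p = 0.0114). Ckap2 was at 0.714, 0.911 and 0.513 CPM against 3.80, 3.63 and 7.19 CPM (2.75 ± 0.40, adjusted p = 0.0175). The highest of the 3 hormone libraries was hormone 3 for both. Aspm, a spindle pole protein, was at 5.28, 4.01 and 3.47 CPM against 10.6, 8.50 and 10.5 CPM, the smallest change of the role (1.22 ± 0.23, adjusted p = 0.0354). Prc1, Hmmr and Tpx2 had positive fold changes and did not pass, with edgeR adjusted p-values of 0.0538, 0.0515 and 0.16. Their DESeq2 adjusted p-values were 0.000148, 0.00228 and 0.0528. Among 22 other spindle and cytokinesis genes tested, 10 rose and none fell (DESeq2 called 13), led by Iqgap3, a scaffold protein (3.21 ± 0.32, edgeR adjusted p = 0.00652), Kif18b, a microtubule end motor (2.64 ± 0.29), and Troap (2.63 ± 0.34).

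Of the cytokinesis members, Ect2, which activates the GTPase of the contractile ring, was at 0.856, 0.547 and 0.128 CPM in the controls and 4.83, 3.49 and 5.63 CPM in the hormone libraries (3.18 ± 0.53, edgeR adjusted p = 0.0254). Its partner Racgap1 rose by 1.64 ± 0.34. Anln, anillin, was at 3.35, 2.61 and 1.09 CPM against 4.76, 3.63 and 5.86 CPM, where the lowest hormone library stood just above the highest control (1.02 ± 0.41, adjusted p = 0.204). A row described as anillin-like had 78, 93 and 41 counts in the controls and 122, 99 and 120 in the hormone libraries, and reads shared between it and Anln are uncertain.

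Among genes of chromosome structure, 4 of 6 rose. Mki67, the Ki-67 antigen that coats mitotic chromosomes, was at 6.21, 3.28 and 2.89 CPM in the controls and 39.5, 21.9 and 41.4 CPM in the hormone libraries (3.06 ± 0.37, edgeR adjusted p = 0.0109). Top2a, the topoisomerase that untangles sister chromatids, was at 4.07, 3.40 and 1.93 CPM against 27.0, 16.6 and 32.0 CPM (3.01 ± 0.35, adjusted p = 0.00966). Hormone 2 was the lowest hormone library for both, and it still stood above every control. The condensin subunits split: Ncaph was at 1.07, 0.668 and 0.834 CPM against 4.63, 4.07 and 5.94 CPM (2.50 ± 0.31, adjusted p = 0.0114), and Ncapg at 0.571, 0.486 and 0.385 CPM against 3.73, 2.47 and 3.36 CPM (2.71 ± 0.34, adjusted p = 0.0114). With 8, 8 and 6 counts in the controls, Ncapg passed the count filter in hormone libraries alone. The core condensin ATPases did not pass: Smc4 was at 47.6, 42.4 and 41.7 CPM against 50, 50.6 and 58.4 CPM (0.27 ± 0.12, adjusted p = 0.218), with no overlap between groups, and Smc2 had 0.54 ± 0.14 (adjusted p = 0.0850; DESeq2 0.0126). Per length, Smc4 stood at 10.8 ± 1.20 FPKM in the controls, far above Ncaph at 0.315 ± 0.0835 (SD, n = 3). In a list of 16 other condensin and cohesin genes, 3 rose and none fell (DESeq2 called 5). They were Ncapd3, a condensin subunit (0.86), Cdca5, a cohesin regulator (1.87), and Cdca2 (2.03), which targets a phosphatase to chromatin and is in neither complex.

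**Figure D3:**
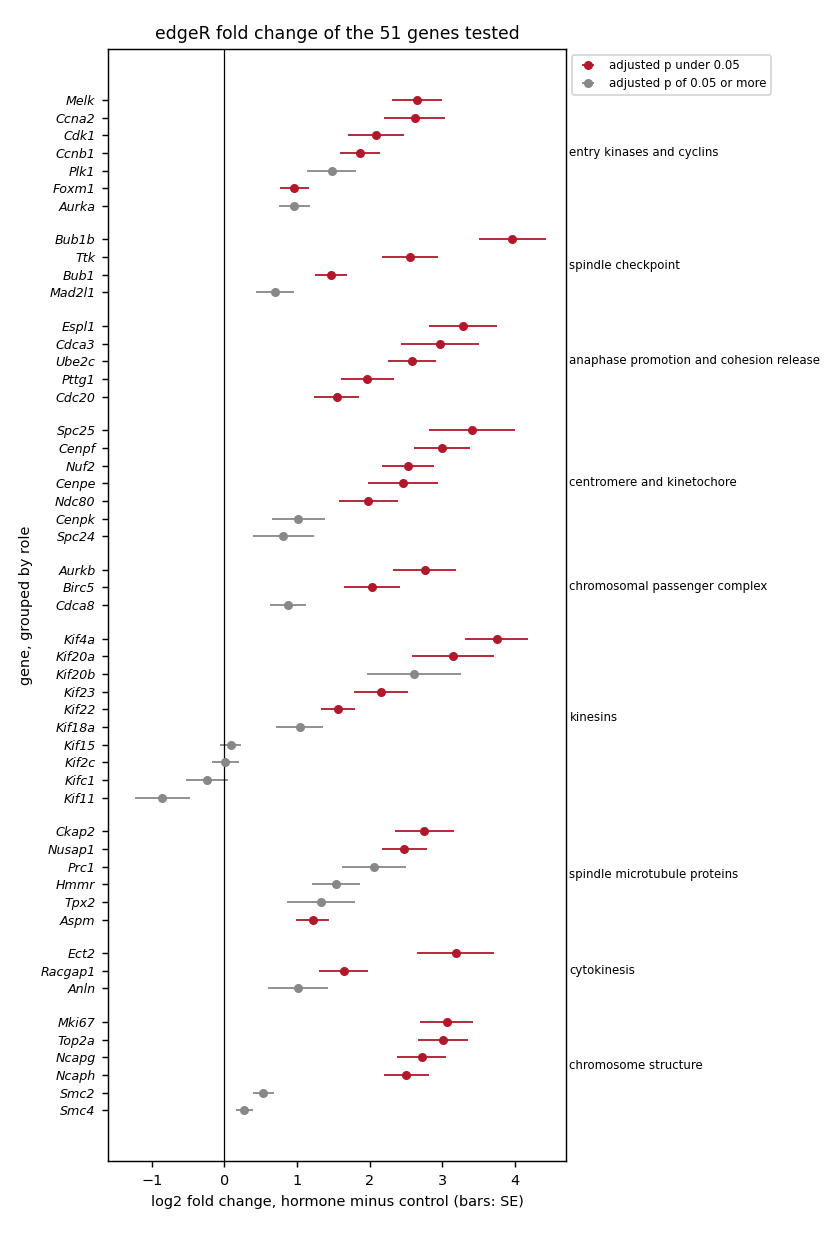
log2 fold change, hormone minus control, of the 51 members tested, by role, with the SE as bars and calls in red. 49 points lie above 0, and the highest is Bub1b at 3.96, a gene that passed the count filter in hormone libraries alone.

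Members were also counted by their control mean. Of 32 members with a control mean under 2 CPM, 26 rose, beside 6.75% of all genes there; of 13 between 2 and 10 CPM, 7 rose, beside 2.26%; of 6 at 10 CPM or more (Kif11, Kif15, Kif2c, Kifc1, Smc2, Smc4), none rose, beside 1.66%, a count near the background share. Their median log2 fold changes were 2.54, 1.33 and 0.05. The control level enters both axes, so the 2 are not independent measures, and no test was made. The group under 2 CPM also holds every member that needed hormone libraries to pass the count filter. Its calls and median therefore follow in part from the filter. Per length, these 6 were also the members with the highest control means, from 2.85 FPKM for Smc2 to 23.0 FPKM for Kif15. The summed CPM of all 53 was 292, 316 and 325 in the controls and 530, 477 and 619 in the hormone libraries. The 6 members at 10 CPM or more supplied 68.9%, 79.3% and 81.5% of it in the controls. In the hormone libraries they supplied 40.9%, 53.5% and 42.4%. The 33 that rose went from 45.4 ± 9.95 to 230 ± 54.2 CPM (SD, n = 3). They were picked by their rise in these same libraries, so the rise of their sum follows from that choice. The 18 that did not pass went from 265 ± 27.4 to 310 ± 26.1 CPM.

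**Figure D4:**
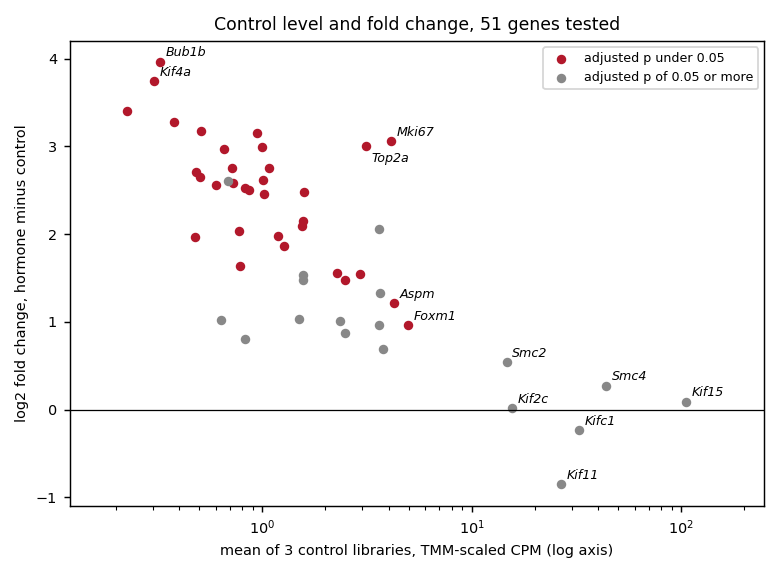
Mean control level (TMM-scaled CPM, log axis) against the log2 fold change of the 51 members tested, red where the adjusted p was under 0.05. The 6 members at 10 CPM or more lie between -0.85 and 0.54.

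The hormone libraries did not rank alike. Hormone 3 was highest for 36 of the 51 members and hormone 2 lowest for 39, where all genes gave 32.9% and 30.9%. For the 33 that rose, the median ratio to the hormone mean was 0.997, 0.763 and 1.21 in hormone 1, 2 and 3. Control 1 was the highest control for 35 of the 51, beside 44.6% of all genes. Macrophage markers ranked otherwise, highest in hormone 1 for 14 of 15 genes, and lymphocyte markers there for 10 of 10 tested. Of the 15 macrophage markers, 0 were called by edgeR, 12 were higher at an unadjusted p under 0.05 and DESeq2 called 5. Of 10 lymphocyte markers, these counts were 0, 4 and 1. Over all genes, the shares higher were 2.39%, 12.1% and 6.47%. The part of these markers in the mitotic result was not tested. Lymphocyte markers summed to 39.3 to 61.8 CPM in the controls and 69.5 to 138 CPM in the hormone libraries, with Gzmb at 0.

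Related genes outside the members were read from lists that were not tested against the members. Of 17 other mitotic kinases, phosphatases and regulators, 4 rose and none fell (DESeq2 called 5 higher and 1 lower): Mybl2, a transcription factor of the cell cycle (1.97 ± 0.29, edgeR adjusted p = 0.0169), Pbk, a kinase (2.55 ± 0.39), Mastl, which restrains a mitotic phosphatase (2.30 ± 0.38), and Ccnf, cyclin F (1.00 ± 0.20). None of 11 MuvB and DREAM genes, which repress or activate late cell cycle genes, was called, a count near the background share, and their median was 0.14. At an unadjusted p under 0.05, 3 were higher, and DESeq2 called Rbl2 and Lin54. The 3 subunits of nuclear factor Y, which binds CCAAT boxes, had fold changes from -0.36 to -0.12. Of 10 inhibitors of cyclin-dependent kinases and quiescence genes, 1 fell and none rose (DESeq2 called 1 lower and 1 higher): Cdkn1c, the inhibitor p57, was at 9.99, 5.41 and 5.58 CPM in the controls and 2.12, 1.6 and 2.19 CPM in the hormone libraries, with no overlap (-1.82 ± 0.32, edgeR adjusted p = 0.0316). DNA replication genes rose in 8 of 30 cases (14 by DESeq2), with a median of 0.55; Rrm2, a subunit of ribonucleotide reductase, had 4.30 ± 0.49, Tk1, thymidine kinase, 1.65 ± 0.19, and Mcm3, of the replicative helicase, 1.79 ± 0.21. Of 12 cyclins and E2F factors of the G1/S step, E2f8 and E2f7, repressors of cell cycle genes, rose (DESeq2 called 3; 4.17 ± 0.40 and 3.97 ± 0.65).

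**Figure D5:**
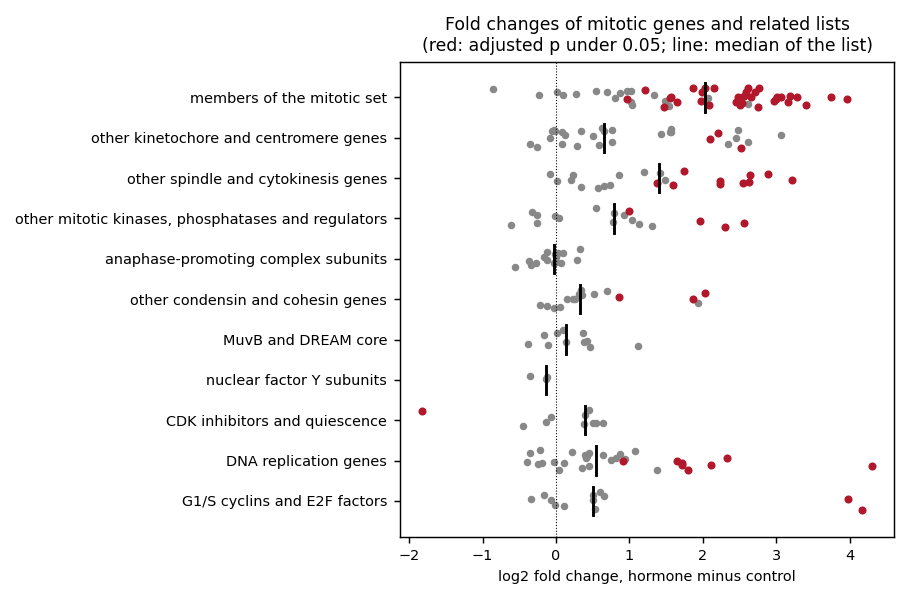
log2 fold change, hormone minus control, of single genes (points, red where the adjusted p was under 0.05) for the members and 10 related lists; the black line is each list's median. The members have a median of 2.03. The list of anaphase-promoting complex subunits, which also holds Fzr1 and Ube2s, has one of -0.02.

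The promoters of these genes are shown because late cell cycle genes are known for 2 short promoter elements, the cell cycle homology region (CHR: TTTGAA or TTCGAA) and the CCAAT box, each searched on both strands over 250 bases before to 50 after the start, from RefSeq (GRCr8). Of the 48 listed genes with an entry, 34 (70.8%) held a CHR match, beside 21.0% of all promoters of the 27457 symbols in the table, and 36 (75.0%) held CCAAT, beside 39.6%. Both were found in 28 (58.3%), beside 8.57%. Among the 10166 promoters of genes tested here, the shares were 14.4%, 38.8% and 5.92%. Aurkb, Ube2c, Foxm1, Racgap1, Ccna2 and Tpx2 had no entry. Among promoters of the members that rose the CHR share was 75.0% (21 of 28), and among those that did not pass 64.7% (11 of 17). These shares rest on few genes, and their difference was not tested. In the sequences below, 130 bases before to 40 after the start, capitals mark a CHR match or a CCAAT box (ATTGG is the CCAAT box on the other strand).
Cdk1 (chr20:19265163-19265332, plus strand): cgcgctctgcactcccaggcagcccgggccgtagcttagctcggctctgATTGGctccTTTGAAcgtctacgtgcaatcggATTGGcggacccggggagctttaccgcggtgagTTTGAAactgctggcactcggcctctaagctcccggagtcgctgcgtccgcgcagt
Cdc20 (chr5:137255760-137255929, minus strand): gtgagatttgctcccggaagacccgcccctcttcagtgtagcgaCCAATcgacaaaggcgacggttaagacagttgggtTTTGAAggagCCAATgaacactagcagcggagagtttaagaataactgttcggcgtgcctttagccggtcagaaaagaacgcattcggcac
Plk1 (chr1:186147528-186147697, plus strand): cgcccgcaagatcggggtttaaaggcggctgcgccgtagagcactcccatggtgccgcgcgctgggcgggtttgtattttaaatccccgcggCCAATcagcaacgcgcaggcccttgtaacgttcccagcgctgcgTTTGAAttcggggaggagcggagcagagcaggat
Cenpf (chr13:103760847-103761016, minus strand): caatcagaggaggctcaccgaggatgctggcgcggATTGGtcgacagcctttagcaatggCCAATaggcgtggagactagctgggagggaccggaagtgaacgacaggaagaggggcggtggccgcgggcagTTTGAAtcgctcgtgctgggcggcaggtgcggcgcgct
Kif4a (chrX:69761753-69761922, plus strand): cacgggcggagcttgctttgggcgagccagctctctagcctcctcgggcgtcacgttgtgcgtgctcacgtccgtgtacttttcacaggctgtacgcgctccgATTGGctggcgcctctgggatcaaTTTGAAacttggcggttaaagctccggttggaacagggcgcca
Nusap1 (chr3:127057165-127057334, plus strand): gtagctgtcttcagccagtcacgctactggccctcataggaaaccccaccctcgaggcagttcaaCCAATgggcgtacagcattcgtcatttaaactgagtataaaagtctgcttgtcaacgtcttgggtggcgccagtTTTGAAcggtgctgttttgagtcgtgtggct
Ncaph (chr3:134852463-134852632, minus strand): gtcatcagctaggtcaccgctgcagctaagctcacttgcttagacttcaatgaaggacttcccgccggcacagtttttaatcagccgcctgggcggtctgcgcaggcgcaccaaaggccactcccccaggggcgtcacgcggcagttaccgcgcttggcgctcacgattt
Kif2c (chr5:135895514-135895683, minus strand): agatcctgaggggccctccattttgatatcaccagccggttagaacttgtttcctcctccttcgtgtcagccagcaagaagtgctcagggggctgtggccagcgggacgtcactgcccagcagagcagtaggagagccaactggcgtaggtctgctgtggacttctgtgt
A match describes letters in a window, not a site in use. In the bases shown, Cdk1 has 2 CHR matches and 2 CCAAT boxes, and Plk1 and Kif4a 1 of each. Over the whole window searched, Cdk1 has 3 CCAAT boxes and Kif4a 2. Ncaph, which rose, and Kif2c, which did not pass, have neither in the window shown.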

How the data were processed

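RNA from rat prostate was sequenced in 3 hormone-treated and 3 control libraries. The authors deposited, per gene, whole-number read counts and FPKM for the 6 libraries; per the submitters' processing notes the tools were TopHat, Bowtie2 and HTSeq, and no versions are given there. No source used here states the genome build, annotation, strand setting or handling of multiply mapped reads. The count table held 32883 genes, 388 of them with a gene ID and no name, which stayed in the fit.

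Counts were tested with edgeR 4.0.16 (R 4.3.3; filterByExpr with a minimum count of 10 and a total of 15, TMM scaling, robust quasi-likelihood F-test), two-sided, with Benjamini-Hochberg adjustment over the 14003 genes tested and a threshold of 0.05. Alternatives were DESeq2 1.42.0, limma 3.58.1 on log2(FPKM + 1) and log2(FPKM + 0.1), other scalings and filters, the replicate block and leaving out each library. The edgeR step was tested on simulated data. Each library's counting precision is limited by its total; the biological coefficient of variation was 22.7%.

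The members, roles and gene lists were chosen with earlier results of these data known. Per-library values are given for the 12 members with the smallest p, those highest and lowest in each role, and those not tested; up to 3 genes with the smallest p are named per related list. Values of the other members, Bub3, Incenp and Semg1 were added after values were seen. Luminal, basal, smooth muscle, fibroblast, endothelial, macrophage, lymphocyte and seminal vesicle marker lists had 2 of 11, 0 of 6, 0 of 8, 0 of 8, 1 of 6, 0 of 15, 0 of 10 and 0 of 1 tested genes called. Libraries of a group differed from each other by a chi-square per gene of 22.2 to 112, above sampling noise.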

Additional observations from a re-analysis of the deposited data

How the results depend on the processing

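The direction of every member named with a value held under the scalings, filters and tests tried, except Kif15 and Kif2c, which turned negative with library-total scaling and with limma; leaving out control 1 turned Kif15, and leaving out control 2, hormone 2 or hormone 3 turned Kif2c. Scaling by library total moved the median of all genes to -0.13 and the number of members called to 27 (1.85% of all genes). The count of members called, 33, fell to 19 with at least 50 counts in 3 libraries (31 members tested; 2.31% of all genes) and ranged from 0 to 30 with 1 library left out; no member was called under all 6. DESeq2 without control 2, chosen after seeing the data, called 35. The members' median moved to 1.56 with that filter and to 0.71 with limma on log2(FPKM + 1), whose pseudocount shrinks low genes, and ranged from 1.87 to 2.38 with 1 library left out. The naming rule, which leaves out Cdk1, Kif15 and Kif2c, chose 25 tested members, of which 18 were called. Of these 25, 9 were called with at least 50 counts in 3 libraries, and 0 to 17 with 1 library left out. The rule picks members partly by the smallest p in the same fit that gave the 18 calls. That count therefore follows in part from the choice and is not a separate check on the 33. Calls in the related lists, 30 higher, were 55 with DESeq2, 14 with at least 50 counts, and 4 to 29 with 1 library left out. The hormone minus control difference in summed member CPM, 231, ranged from 193 to 264.

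Groups share replicate numbers, but no label says that these pair the tissues. The correlation of same-numbered deviations was 0.08, -0.06 and 0.07, and not every sample correlated best with its own number. With the replicate block, 19 members were called (1.63% of all genes), all among the 33, and 17 genes of the related lists.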

Other observations

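A row described as cyclin B2-like, which was not tested as a member, had 14, 12 and 6 counts in the controls and 92, 58 and 70 in the hormone libraries. DNA replication genes ranked the hormone libraries differently from the mitotic members: hormone 2 was the highest hormone library for 18 of 30 replication genes and for 4 of the 51 members. These are values only, and no test of the ranking was made.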
